A study of Rattus norvegicus with 16 samples.

Results

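Vcam1, Icam1, Cx3cl1 and Ccl2 are genes through which the vessel wall captures leukocytes, and their transcripts were followed in the descending thoracic aorta of rats at 4 ages. They were chosen by gene symbol: every probe set (a group of short oligonucleotides that together report 1 transcript) annotated to 1 of the 4 symbols was taken, whatever its values. This gave 9 of the 8799 probe sets on the array, and 4 of the 4737 genes named by a probe set with 1 symbol. Vcam1, Icam1 and Ccl2 had 2 probe sets each and Cx3cl1 had 3, and each probe set is described apart.

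Total RNA was prepared from a 1 cm piece of descending thoracic aorta of each of 16 rats, 4 at each of 3, 6, 15 and 28 months, and each rat was measured on 1 Affymetrix RG_U34A array. All rats were untreated as far as the labels state, and the ages were the only groups. Neither strain nor sex is stated in the labels. The title describes progressive vascular disease in a rat model of aging, and the comparison of ages asks how transcripts of the aorta changed with it.

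Leukocytes leave the blood in steps. VCAM-1 and ICAM-1 are membrane proteins of activated endothelium, to which integrins on monocytes and lymphocytes bind for firm adhesion, and both are also made by smooth muscle cells of an inflamed artery. The chemokine CX3CL1 (fractalkine) is made as a membrane-anchored molecule that captures cells bearing CX3CR1 and can be shed by the proteases ADAM10 and ADAM17, while CCL2 (monocyte chemoattractant protein) is secreted and draws monocytes through CCR2. All 4 genes can be induced by inflammatory cytokines through the transcription factor NF-kB.

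The promoter regions of the members are shown, whatever their changes, because NF-kB sites near the start are a textbook feature of this group. RefSeq sequence of build GRCr8 was matched by symbol for 3 of the 4 genes, each as 250 bases before to 50 after a listed transcript start. Ccl2 is not shown because no sequence was matched to it. The windows are chr2:206742734-206743033 on the minus strand for Vcam1, chr8:27829595-27829894 on the plus strand for Icam1 and chr19:10242771-10243070 on the minus strand for Cx3cl1, each read 5′ to 3′ along its gene. Capitals mark matches to the NF-kB loose form GGGNNNNNCC, which includes the NF-kB consensus, and to the TATA box TATAAA, on either strand.
Vcam1: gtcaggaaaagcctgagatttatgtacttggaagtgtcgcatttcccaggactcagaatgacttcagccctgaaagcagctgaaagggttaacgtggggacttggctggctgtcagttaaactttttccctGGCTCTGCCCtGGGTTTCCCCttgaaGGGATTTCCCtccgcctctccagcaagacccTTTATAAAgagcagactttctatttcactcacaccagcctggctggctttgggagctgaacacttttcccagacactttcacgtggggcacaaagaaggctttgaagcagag
Icam1: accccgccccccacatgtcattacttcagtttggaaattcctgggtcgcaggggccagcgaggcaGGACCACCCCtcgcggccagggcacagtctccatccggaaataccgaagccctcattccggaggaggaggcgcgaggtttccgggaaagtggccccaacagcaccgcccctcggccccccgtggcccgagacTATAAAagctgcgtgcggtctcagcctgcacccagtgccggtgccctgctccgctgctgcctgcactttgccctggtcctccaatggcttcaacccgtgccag
Cx3cl1: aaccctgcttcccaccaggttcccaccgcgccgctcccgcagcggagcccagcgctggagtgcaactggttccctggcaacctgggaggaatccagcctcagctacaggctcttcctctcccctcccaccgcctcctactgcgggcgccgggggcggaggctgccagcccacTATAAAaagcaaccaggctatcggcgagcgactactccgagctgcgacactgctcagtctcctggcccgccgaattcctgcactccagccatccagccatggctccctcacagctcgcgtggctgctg

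The Vcam1 window held 3 stretches of the NF-kB loose form, starting 119, 108 and 93 bases before the start (positions -119, -108 and -93), and the stretch from -93 to -84 also matched the NF-kB consensus. The Icam1 window held 1 loose match, from -185 to -176, and none of the consensus. No match to either was found in the Cx3cl1 window. Both patterns require GGG, so NF-kB sites of another form were not searched for and are not marked. Of 33469 rat promoter windows of the same length, 7.51% held the consensus and 47.3% the loose form. Each of the 3 windows held TATAAA, at -60, -53 and -78, against 14.2% of all windows. The AP-1 motif TGANTCA was in none of the 3 and in 7.33% of all windows, and the ETS core GGAA was in all 3 and in 95.8% of all. The starts used were the annotated gene start for Vcam1, 157 bases inside the gene for Icam1 and 2036 bases inside it for Cx3cl1. These letter matches are descriptions, and no binding was measured. In the same build the genes span chr2:206723050-206742783 (Vcam1), chr8:27829688-27841618 (Icam1), chr19:10233326-10244856 (Cx3cl1) and chr10:67503077-67504875 (Ccl2). The array files name no build of their own.

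The values are MAS5 signals, a summary intensity for each probe set. The authors' values had a mean after trimming 2% at each end of 1001.7 to 1002 and a median of 223.5 to 267.7 on every array, and arrays correlated with each other at 0.869 to 0.966. Markers of smooth muscle were bright on every array, with a mean log2 value over 11 genes (Acta2, Myh11, Tagln and others) of 13.07 to 14.70, as for an arterial wall. The pieces also carried transcripts of fat. A fat score was formed from 33 adipocyte and brown fat genes as their mean log2 value, and from the youngest age to the oldest it was 12.22 ± 0.52, 12.30 ± 0.71, 11.07 ± 1.57 and 10.62 ± 0.64 (SD, n = 4). Every array at 28 months lay below every array at 3 months, a difference of -1.60 (exact permutation test, two-sided, p = 0.0286, the smallest 4 against 4 can give, and 0.114 adjusted over 12 score comparisons). At 15 months replicates 3 and 4, with 9.86 and 9.57, stood far below replicates 1 and 2, with 12.55 and 12.30. The score of 8 endothelial genes was 8.76 ± 0.19, 8.90 ± 0.15, 8.56 ± 0.44 and 8.67 ± 0.26 at the 4 ages, and 28 months differed from 3 by -0.09 (p = 0.543, exact). In these pieces, fewer cells of a type and less RNA per cell cannot be told apart. Replicate numbers 1 to 4 each correspond to 1 combination of hybridisation day, fluidics station and chip lot in the array records. Replicates 1 and 2 were on the first hybridisation day and 3 and 4 on the second. The 3′ to 5′ ratio of beta-actin, a measure of RNA degradation, exceeded 3 on 2 arrays, both of them replicate 4, at 15 months (3.20) and 28 months (3.82). That of hexokinase was 2.03, 1.69, 1.68 and 3.12 at 3 months and 3.065, 2.38, 5.03 and 3.22 at 28 months (replicates 1 to 4). It was higher at 28 months for each replicate number, though the ages overlapped, and its part in the results was not tested.

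Between 3 and 28 months, both Vcam1 probe sets, the brighter Icam1 probe set and 2 of the 3 Cx3cl1 probe sets rose, by 2.15-fold to 6.34-fold. Ccl2 did not pass the test on either of its probe sets. Values were compared as log2(signal + 16) with limma across the 5244 probe sets that passed a filter on mean signal, with Benjamini-Hochberg adjustment over all of them. All 9 probe sets passed the filter. At an adjusted p under 0.05, 5 of the 9 were higher at 28 months, and 1.09% of all probe sets tested were. In 6 of the 9 every array at 28 months lay above every array at 3 months, against 10.5% of all tested. With the replicate number as a block the same count of 5 of 9 was higher, beside 6.62% of all.

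**Figure D1:**
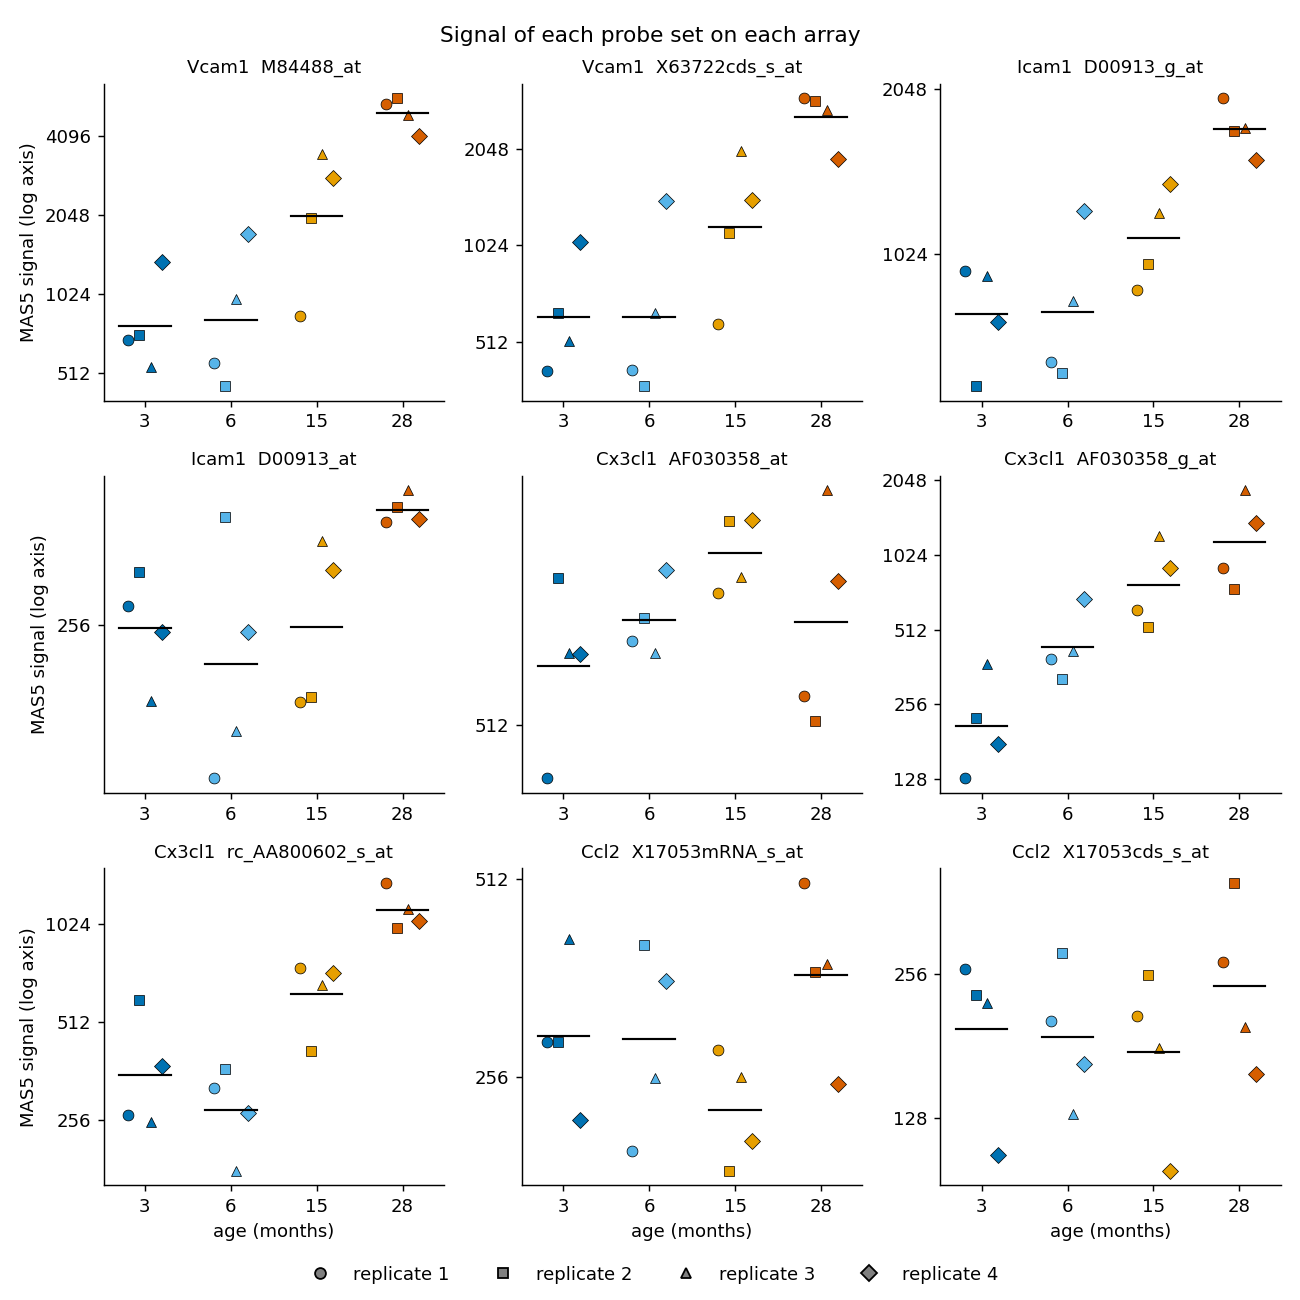
MAS5 signal of each of the 9 probe sets on each of the 16 arrays, by age in months, on log axes that differ between panels. Bars are means of the log2 values at an age (n = 4) and marker shapes are replicate numbers. Both Vcam1 panels, both Icam1 panels and 2 Cx3cl1 panels end with the 28-month arrays above every 3-month array, although D00913_at of Icam1 did not pass the test, and the Ccl2 panels do not.

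Both Vcam1 probe sets rose. On probe set M84488_at the signals at 3 months were 686, 712, 542 and 1356 (replicates 1 to 4), and at 6 months 560, 457, 980 and 1726. They were 842, 1997, 3490 and 2837 at 15 months and 5413, 5697, 4924 and 4101 at 28 months. Replicate 4 was the highest array at both 3 and 6 months, the 15-month arrays spread from the level of the young rats to near that of the old, and no array of another age reached the lowest at 28 months. The log2 means were 9.63 ± 0.56, 9.70 ± 0.85, 10.99 ± 0.90 and 12.29 ± 0.21 (SD, n = 4), with the least spread at 28 months. From 3 to 28 months the log2 change was 2.66 (SE 0.44, 95% interval 1.74 to 3.59), 6.34-fold, with adjusted p = 0.00847 (limma).

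The other Vcam1 probe set, X63722cds_s_at, gave 415, 630, 513 and 1049 at 3 months and 418, 372, 628 and 1410 at 6 months. It gave 580, 1118, 2028 and 1418 at 15 months and 2961, 2900, 2713 and 1915 at 28 months. The arrays kept nearly the same order as on the first probe set, but here replicate 3 at 15 months exceeded replicate 4 at 28 months. The log2 change from 3 to 28 months was 2.05 (SE 0.42, 95% interval 1.17 to 2.93), 4.13-fold, with adjusted p = 0.0221 (limma). With age means removed, the 2 Vcam1 probe sets correlated over 16 arrays at r = 0.959 (rho = 0.944; permutation p = 0.00011 and 0.00013, adjusted over 20 relations 0.0022 and 0.0026). Without the 2 arrays farthest from the median r was 0.935, and within the 2 days it was 0.927 and 0.954. The first probe set changed by 0.62 more than the second (exact permutation p = 0.0286, adjusted over 6 pairs within genes 0.0571).

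Icam1 rose less than Vcam1. On D00913_g_at its signals were 953, 586, 932 and 767 at 3 months and 648, 618, 838 and 1227 at 6 months. They were 878, 978, 1214 and 1370 at 15 months and 1971, 1717, 1737 and 1519 at 28 months. Every array at 28 months stood above all 12 younger arrays. The log2 means were 9.66 ± 0.32, 9.68 ± 0.45, 10.12 ± 0.29 and 10.77 ± 0.15 (SD, n = 4), and the change from 3 to 28 months was 1.10 (SE 0.23, 95% interval 0.62 to 1.59), 2.15-fold, with adjusted p = 0.0260 (limma).

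The dimmer Icam1 probe set D00913_at gave 276, 316, 190 and 249 at 3 months, 140, 392, 169 and 249 at 6 months, 189, 193, 357 and 318 at 15 months and 385, 409, 436 and 389 at 28 months. The 28-month arrays again lay above all arrays at 3 and 15 months, while replicate 2 at 6 months fell among them. Its change of 0.64 (SE 0.29, 95% interval 0.01 to 1.26) did not pass, with adjusted p = 0.214 (limma). The changes of the 2 Icam1 probe sets differed by 0.47 (exact permutation p = 0.143, adjusted 0.214), and with age means removed they correlated at r = 0.084 (rho = 0.171; permutation p = 0.840 and 0.608, adjusted 0.976 and 0.878). That r was 0.138 without the 2 farthest arrays and -0.087 and 0.272 within the days.

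The 3 Cx3cl1 probe sets did not move alike. AF030358_g_at gave 129, 226, 373 and 177 at 3 months and 390, 325, 419 and 678 at 6 months. It gave 612, 527, 1220 and 905 at 15 months and 908, 747, 1860 and 1381 at 28 months. The mean stepped up at each age, every array at 15 and 28 months lay above every array at 3 months, and at 15 and 28 months replicates 3 and 4 were the higher ones. The log2 means were 7.82 ± 0.60, 8.82 ± 0.44, 9.63 ± 0.54 and 10.19 ± 0.58 (SD, n = 4), and the change from 3 to 28 months was 2.36 (SE 0.36, 95% interval 1.61 to 3.12), 5.15-fold, with adjusted p = 0.00612 (limma).

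The second, rc_AA800602_s_at, gave 265, 600, 252 and 376 at 3 months and 322, 368, 179 and 269 at 6 months. It gave 752, 418, 663 and 724 at 15 months and 1368, 992, 1135 and 1043 at 28 months. All 28-month arrays exceeded all younger ones, and 3 of the 4 arrays at 15 months exceeded all of those at 3 months. Its change from 3 to 28 months was 1.64 (SE 0.28, 95% interval 1.04 to 2.23), 3.11-fold, with adjusted p = 0.0112 (limma).

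The third, AF030358_at, is the brightest by mean signal and gave 442, 764, 622 and 621 at 3 months, 643, 686, 623 and 781 at 6 months, 734, 893, 766 and 896 at 15 months and 553, 517, 971 and 759 at 28 months. The ages overlapped throughout, and the 28-month arrays were split between the first day (553 and 517) and the second (971 and 759). Its change was 0.17 (SE 0.21, 95% interval -0.28 to 0.61), with adjusted p = 0.661 (limma). The change of AF030358_at was lower than that of AF030358_g_at by 2.20 and lower than that of rc_AA800602_s_at by 1.47 on the log2 scale, with no overlap between ages in either difference (exact permutation p = 0.0286 for each, adjusted 0.0571). The statement that Cx3cl1 rose therefore rests on 2 of its 3 probe sets. AF030358_at and AF030358_g_at carry the same accession in their names, and the files give no positions of their oligonucleotides. With age means removed, AF030358_at correlated with AF030358_g_at at r = 0.625 (rho = 0.650; permutation p = 0.0348 and 0.0333, adjusted 0.174 and 0.222), with 0.450 lacking the 2 farthest arrays and 0.696 and 0.378 within the days. The 2 probe sets that rose correlated at r = 0.026 (rho = -0.044; permutation p = 0.935 and 0.887, adjusted 0.976 and 0.934), with 0.226 lacking the 2 farthest arrays and 0.847 and 0.0018 within the days.

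Ccl2 overlapped between all ages on both probe sets. X17053mRNA_s_at gave 289, 289, 415 and 220 at 3 months, 197, 406, 255 and 358 at 6 months, 281, 184, 256 and 204 at 15 months and 506, 370, 380 and 250 at 28 months. The ages overlapped, although the single highest array was at 28 months. Its change from 3 to 28 months was 0.29 (SE 0.27, 95% interval -0.29 to 0.87) with adjusted p = 0.554 (limma). X17053cds_s_at gave 262, 231, 223 and 107 at 3 months, 204, 283, 130 and 166 at 6 months, 209, 255, 179 and 99 at 15 months and 272, 398, 198 and 158 at 28 months. Its ages overlapped too, and its change was 0.28 (SE 0.37, 95% interval -0.49 to 1.06) with adjusted p = 0.672 (limma). The upper ends of both intervals lie below 1.10, the change of the brighter Icam1 probe set.

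The members' changes were set against each other on the brightest probe set of each gene, with 6 pairs and exact permutation tests on the difference within each array. Vcam1 changed more than Icam1 by 1.56, more than Ccl2 by 2.37 and more than Cx3cl1 AF030358_at by 2.50 on the log2 scale, each with exact permutation p = 0.0286, the smallest possible, and adjusted p = 0.0429. Icam1 changed more than Ccl2 by 0.81 with the same p-values. Paired by replicate number, these 4 differences each gave p = 0.125 (exact sign-flip test, two-sided), the smallest that 4 pairs can give, so a paired test cannot reach 0.05. Icam1 against Cx3cl1 AF030358_at gave 0.94 (exact p = 0.0857, adjusted 0.103), and Cx3cl1 AF030358_at against Ccl2 gave -0.12 (exact p = 0.686, adjusted 0.686). The place of Cx3cl1 in this order depends on the probe set. AF030358_g_at and rc_AA800602_s_at changed by 2.36 and 1.64, against 1.10 for Icam1 D00913_g_at, and were not compared between genes.

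The ages in between were compared in the same fit. From 3 to 6 months 0 of the 9 probe sets passed, as did 0% of all tested (limma). The largest log2 change was that of AF030358_g_at of Cx3cl1, at 1.00 (SE 0.36, unadjusted p = 0.0129 and adjusted p = 0.99995 by limma). The Vcam1 changes were 0.07 and -0.0041. From 3 to 15 months 0 of 9 passed, against 0.0191% of all that were higher. The largest was again Cx3cl1 AF030358_g_at, at 1.80 (SE 0.36, adjusted p = 0.0745 by limma), the 1 probe set of 9 without overlap between these ages, against 1.64% of all. With the replicate block its adjusted p was 0.00545, making 1 of 9 beside 0.114% of all. Vcam1 changed by 1.37 and 0.92 over the same interval (adjusted p = 0.525 and 0.664 by limma).

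From 6 to 28 months 4 of the 9 probe sets were higher past the threshold, against 0.572% of all tested. They were M84488_at of Vcam1 with 2.60 (adjusted p = 0.0189 by limma), X63722cds_s_at of Vcam1 with 2.05 (0.0327), D00913_g_at of Icam1 with 1.09 (0.0360) and rc_AA800602_s_at of Cx3cl1 with 1.97 (0.0141). AF030358_g_at of Cx3cl1, which was already higher at 6 months than at 3 by its mean, gave 1.37 with adjusted p = 0.0660, and 0.0122 with the replicate block, which made 5 of 9 beside 9.15% of all. In 5 of 9 the 28-month arrays lay above all 6-month arrays, against 10.8% of all. This count of 4 fell to 0 without replicate 1 at 28 months and to 1 without replicate 1 or 2 at 6 months or replicate 3 at 28 months. It was 2 without replicate 3 at 6 months, replicate 2 at 15 months, or replicate 2 or 4 at 28 months. As each array was left out, the count over all probe sets tested ran from 0 to 734.

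From 15 to 28 months 0 of the 9 probe sets passed, as did 0% of all tested (limma). Vcam1 M84488_at changed by 1.30 (SE 0.44, unadjusted p = 0.00916 and adjusted p = 0.965 by limma). In 4 of 9, namely M84488_at, both Icam1 probe sets and rc_AA800602_s_at, the 28-month arrays lay above all 15-month arrays, against 1.37% of all. From 6 to 15 months 0 of 9 passed, against 0% of all that were higher (limma). The probe set rc_AA800602_s_at of Cx3cl1 was the 1 of 9 without overlap, with a change of 1.13 (SE 0.28, adjusted p = 0.599), against 1.68% of all.

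**Figure D2:**
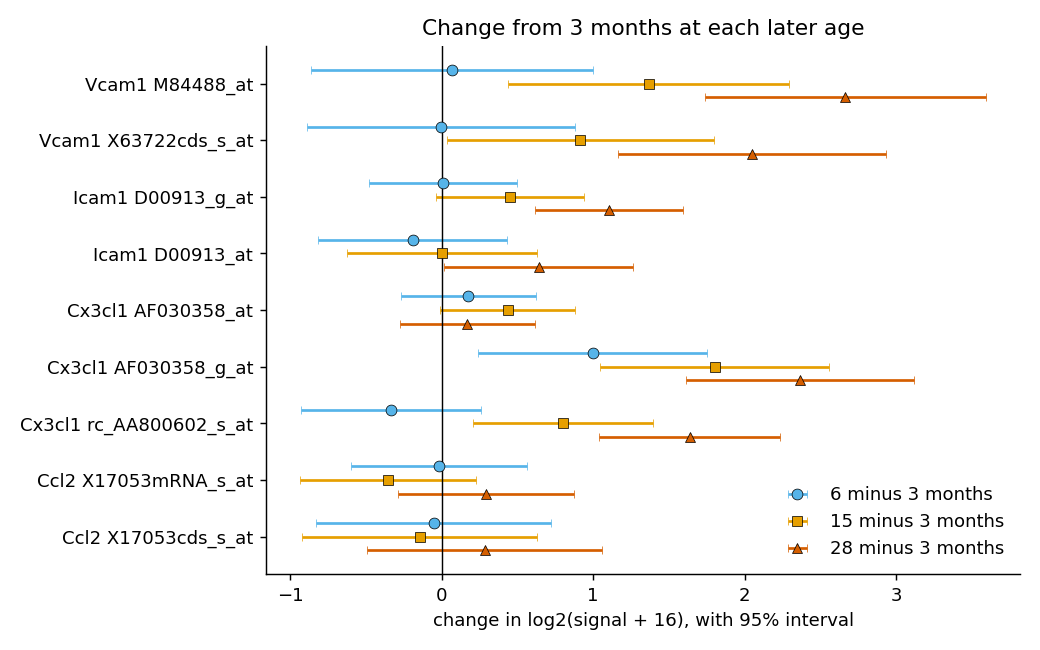
Change in log2(signal + 16) from 3 months to 6, 15 and 28 months for each probe set, with 95% intervals from limma (n = 4 per age, 12 residual degrees of freedom). The Vcam1 changes run from 0.07 and -0.0041 at 6 months to 2.66 and 2.05 at 28 months, AF030358_g_at of Cx3cl1 stands at 1.00 already at 6 months, and the Ccl2 intervals include 0 at every age.

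A line fitted over age in months rose past the threshold for 5 of the 9 probe sets, against 7.53% of all tested, and with the block for 5 of 9 beside 14.4% of all. The slope of Vcam1 M84488_at was 0.112 log2 units per month (SE 0.015, adjusted p = 0.00109 by limma) and that of X63722cds_s_at 0.0862 (0.00307). Cx3cl1 followed with 0.0849 on AF030358_g_at (0.00356) and 0.0753 on rc_AA800602_s_at (0.00187), and Icam1 D00913_g_at with 0.0460 (0.00356). The F test over all ages passed for 3 of 9, against 0.706% of all, with adjusted p = 0.0138 for M84488_at, 0.0138 for AF030358_g_at and 0.0113 for rc_AA800602_s_at. With the block X63722cds_s_at (0.0512 without and 0.0191 with it) and D00913_g_at (0.0602 and 0.0251) passed as well, making 5 of 9 beside 6.50% of all.

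The fat score was lower at 28 than at 3 months (exact permutation test, adjusted p = 0.114), and Vcam1 tended to be higher on arrays where it was lower. At 3 and 6 months the array with the lowest fat score, replicate 4 (11.46 and 11.34), was the array with the most Vcam1 (M84488_at signals of 1356 and 1726). At 15 months the low-fat replicates 3 and 4 had 3490 and 2837 and replicate 1 (12.55) had 842. At 28 months replicate 4, with the lowest fat score of 9.69, had the least Vcam1 (4101), and replicate 3, with the highest of 11.11, had the next lowest (4924). The 15-month replicates 3 and 4 had fat scores under those of 28-month replicates 1 to 3 (10.79, 10.90 and 11.11). Their M84488_at signals were lower than all 4 at 28 months. On X63722cds_s_at, 15-month replicate 3 (2028) exceeded 28-month replicate 4 (1915). With age means removed, Vcam1 M84488_at and the fat score correlated over 16 arrays at r = -0.739 (rho = -0.706; permutation p = 0.00469 and 0.0129, adjusted over 20 relations 0.0469 and 0.129). That r was -0.611 without the 2 farthest arrays and -0.611 and -0.593 within the 2 days. For Icam1 D00913_g_at it was r = -0.521 (rho = -0.503; permutation p = 0.0629 and 0.0878, adjusted 0.252 and 0.293), with -0.492 lacking the 2 farthest arrays and -0.269 and -0.254 within the days. Cx3cl1 AF030358_at gave r = -0.183 and Ccl2 X17053mRNA_s_at r = 0.202 with the fat score (permutation test, adjusted p = 0.702 for each).

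**Figure D3:**
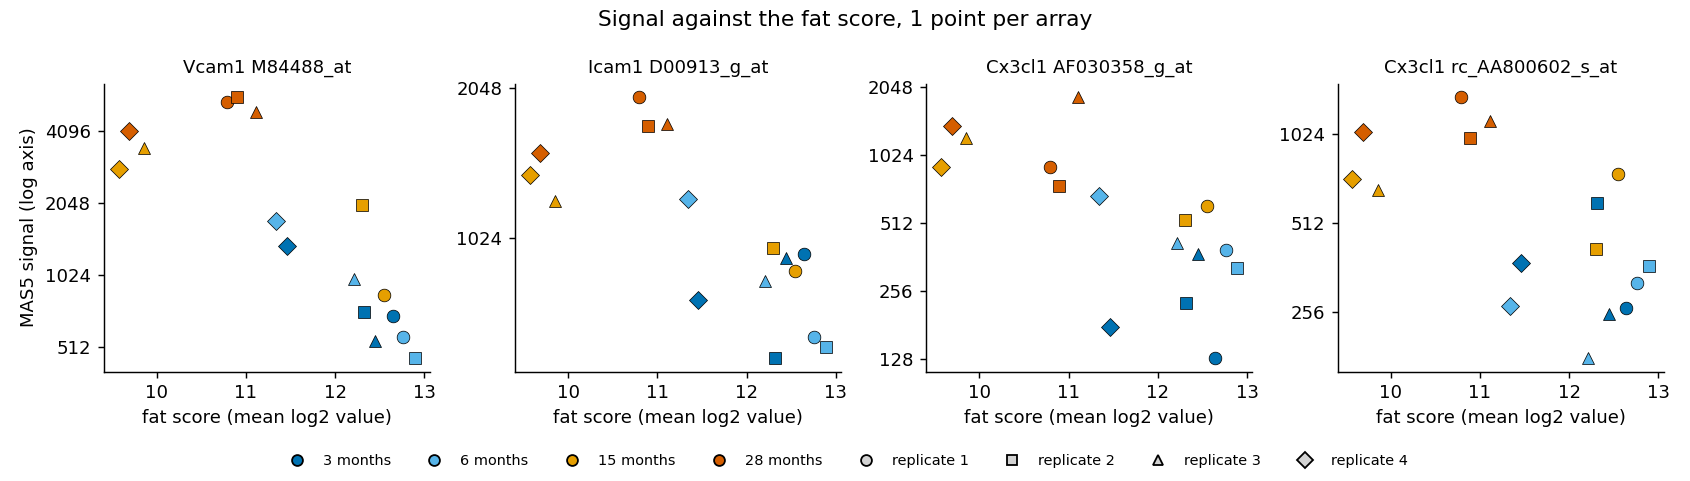
MAS5 signal (log axis) of Vcam1, Icam1 and 2 Cx3cl1 probe sets against the fat score of the same array, the mean log2 value of 33 adipocyte and brown fat genes. Each point is 1 array, colours are ages and shapes are replicate numbers. In the Vcam1 panel (M84488_at) the arrays of 3 and 6 months with the lowest fat scores (11.46 and 11.34) have the highest signals of their age. The 28-month arrays in that panel lie above 15-month arrays of lower fat score.

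With the fat score as a term in the fit, 3 of the 9 probe sets were higher at 28 than at 3 months past the threshold, against 0.534% of all tested. Vcam1 M84488_at kept 1.82 of log2 change (SE 0.36, adjusted p = 0.0304 by limma), AF030358_g_at 1.90 (0.0304) and rc_AA800602_s_at 1.57 (0.0403). X63722cds_s_at gave 1.31 (0.157) and Icam1 D00913_g_at 0.83 (0.164). The Ccl2 values were higher than without the score but did not pass, with X17053cds_s_at at 0.87 (unadjusted p = 0.0305 and adjusted p = 0.436 by limma) against 0.28 and X17053mRNA_s_at at 0.42 (adjusted 0.740) against 0.29. The slope over age passed for 2 of 9 with the fat score, against 0.477% of all, M84488_at of Vcam1 (adjusted p = 0.0183 by limma) and rc_AA800602_s_at of Cx3cl1 (0.0356). It did not pass for X63722cds_s_at (0.0993), D00913_g_at (0.0993) or AF030358_g_at (0.112). The F test over all ages passed for 0 of 9 with the fat score, against 0.172% of all (limma). With fat score and block together 0 of 9 passed, at changes of 1.81, 1.36, 0.90, 2.24 and 1.26 for the 5 probe sets that rose, in the order of the plot, and 5 of all probe sets passed. From 6 to 28 months 0 of 9 passed with the fat score, as did 0% of those tested for a rise. With the endothelial score in its place, Vcam1 M84488_at gave 2.57 from 3 to 28 months (adjusted p = 0.00828 by limma).

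The 5 probe sets that rose were higher at 28 months on both hybridisation days, at 2 arrays per age. Vcam1 M84488_at changed by 2.96 on the first day and 2.37 on the second, X63722cds_s_at by 2.48 and 1.61, and Icam1 D00913_g_at by 1.28 and 0.93. Cx3cl1 changed by 2.16 and 2.57 on AF030358_g_at and by 1.50 and 1.77 on rc_AA800602_s_at. On the first day 5 of 9 probe sets passed in a fit of its own arrays, beside 295 of all 5244 that were higher. On the second day 0 of 9 passed, as did 0 of all probe sets. Leaving out both arrays of high beta-actin ratio, 5 of 9 passed, beside 35 of all 5244 that were higher. Vcam1 M84488_at was then at 2.76 (adjusted p = 0.0235 by limma). The count of 5 fell to 2 without replicate 1 at 3 months or replicate 1 at 28 months, and to 3 without replicate 2 at 3 months or replicate 2 or 3 at 28 months. Over all 5244 probe sets the count past the threshold ran from 10 to 156 as each array was left out. M84488_at and AF030358_g_at passed whichever array was left out.

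**Figure D4:**
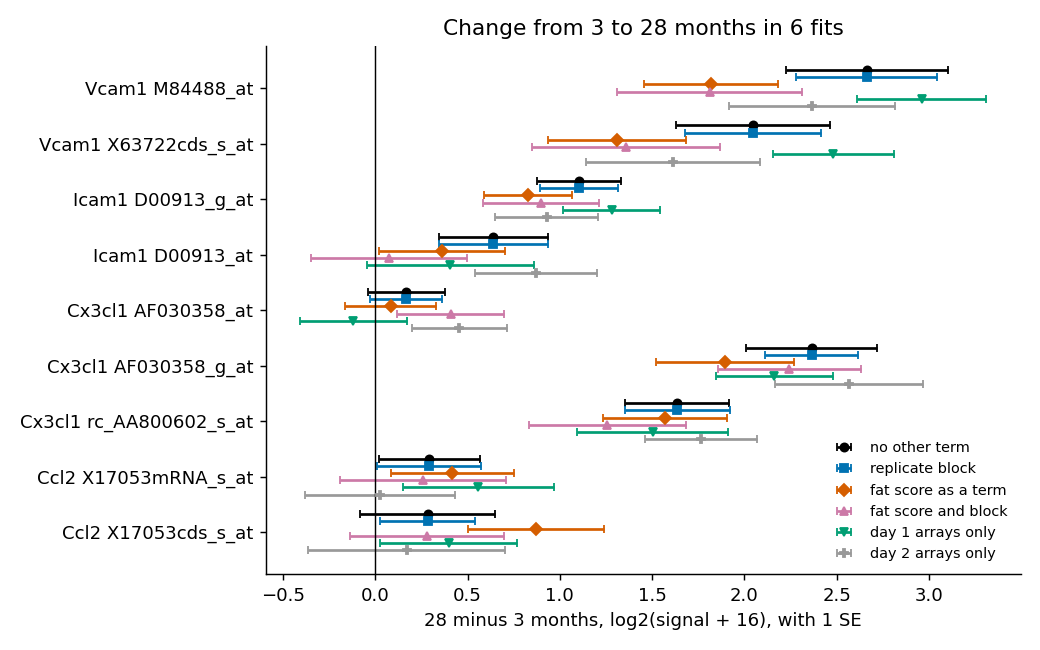
Change from 3 to 28 months in log2(signal + 16) for each probe set in 6 fits, with 1 SE: without another term, with the replicate block, with the fat score, with both, and on the arrays of each hybridisation day alone (n = 2 per age). The 5 probe sets that rose stay above 0 in all 6, from 0.83 (Icam1 D00913_g_at with the fat score) to 2.96 (Vcam1 M84488_at on day 1), and AF030358_at of Cx3cl1 crosses 0.

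Other genes of leukocyte adhesion were measured on their brightest probe set. Of 12 tested members of the adhesion cascade, Vcam1 and Icam1 rose and the other 10 did not pass, 7 of them being higher at 28 months with a median change of 0.44 over the 10. The background is 1.18% of 3140 genes that rose and a median of 0.08. With the replicate block 2 of the 10 were higher past the threshold, beside 220 of the 3140 genes in that fit. These 2 were picked out after their values were seen. Icam2, an adhesion molecule present on resting endothelium, gave 1.39 (adjusted p = 0.0754 without and 0.0377 with the block, limma), and Itgb1, the integrin chain that pairs to form the VCAM-1 receptor on leukocytes and is also widely made by other cells, gave 0.73 (0.195 and 0.0293). With the fat score Itgb1 gave 0.04 and Icam2 1.82 (adjusted p = 0.971 and 0.0640).

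In the chemokine system 0 of 5 ligands passed on their brightest probe sets, with a median of -0.17, and Cx3cl1 is counted there on AF030358_at, which did not pass. Over all 9 ligand probe sets 2 passed, both of Cx3cl1, with a median of 0.17. Among the ligands counted, the smallest p was that of Cxcl14, a chemokine also made in fat, at -2.35 (adjusted p = 0.154, and 0.0341 with the block, limma). With the fat score it gave -0.15. Of 4 receptors 0 passed. Cxcr4, the receptor of CXCL12, gave -0.73 (adjusted p = 0.0695, and 0.0357 with the block) and Ccr1 -0.43 (0.374). The receptors of CCL2 and CX3CL1 are not described here because they were not among the 4 tested.

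Among 10 inducing cytokines and their receptors 0 passed and the median was 0.02. Il6st, the signalling chain of the interleukin-6 receptor, gave 0.55 (adjusted p = 0.182 by limma) and Il6r -0.34 (0.516). Of the NF-kB genes the 2 tested did not pass, with Nfkbia, the inhibitor induced by NF-kB itself, at -0.27 (0.490) and Nfkb1 at 0.19 (0.629). Of 10 other NF-kB target genes 0 passed and the median was -0.03, with Sod2 at -0.48 (0.224) and Bcl2l1 at 0.35 (0.278). Of 7 genes for shedding proteases and their inhibitors 0 passed. Timp2 gave 0.69 (0.0860, and 0.0427 with the block) and Timp1 0.64 (0.164), while the fractalkine sheddases Adam10 and Adam17, named for their role, gave -0.32 (0.523) and -0.28 (0.624).

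**Figure D5:**
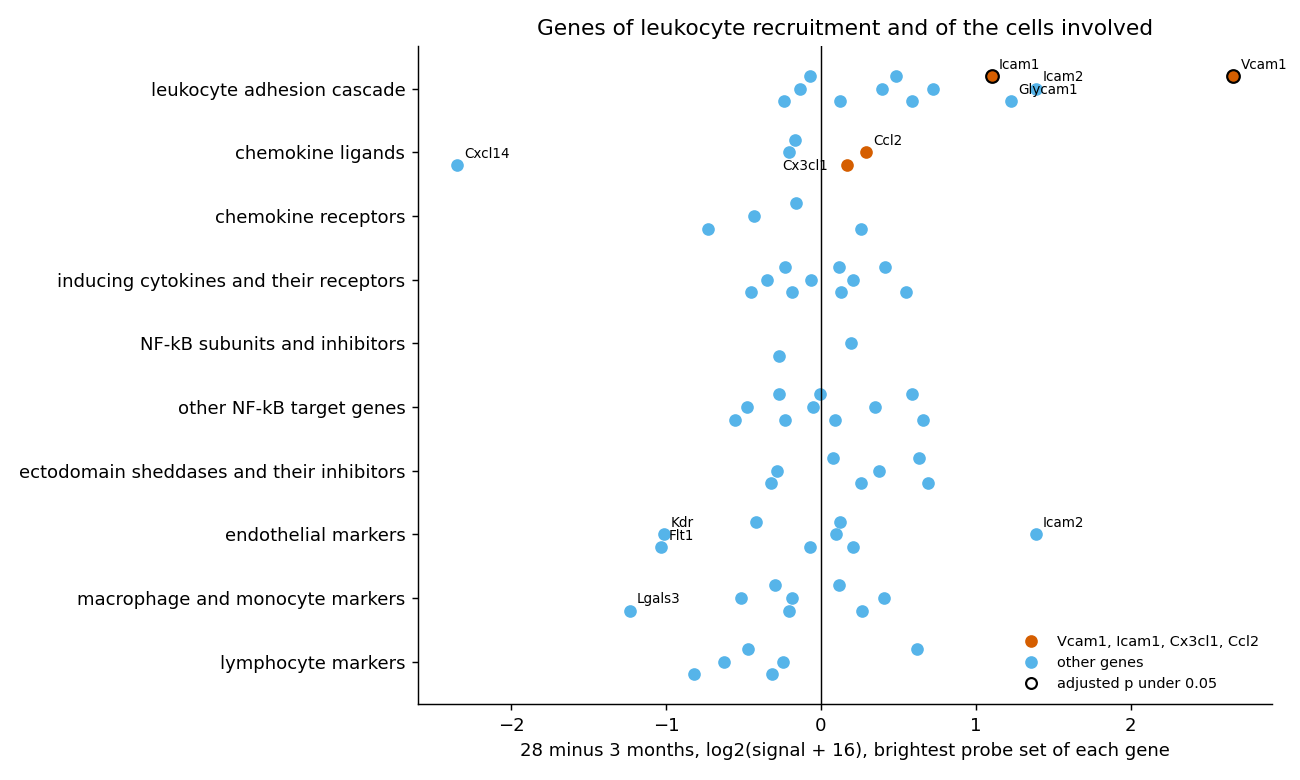
Change from 3 to 28 months in log2(signal + 16) for each tested gene of 10 lists, on the brightest probe set of the gene. Each point is 1 gene, and a black rim marks an adjusted p under 0.05. Vcam1 (2.66) and Icam1 (1.10) carry the only rims among these lists, and the point for Cx3cl1 is its brightest probe set (0.17).

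Markers of the cells that could carry these transcripts were counted the same way. Of 8 endothelial genes 0 passed and the median was 0.02, with Icam2 as above and Flt1 at -1.03 (adjusted p = 0.158 by limma). Kdr, a VEGF receptor named after its value was seen, gave -1.01 (0.183). Of 8 macrophage and monocyte genes 0 passed and the median was -0.20, with Lgals3 at -1.23 (0.140, and 0.0360 with the block) and C1qc at -0.29 (0.452). The macrophage score ranged from 9.43 to 9.66 at 3 months and from 9.00 to 9.77 at 28 months, a difference of -0.21 (exact permutation p = 0.314, adjusted 0.539). Of 6 lymphocyte genes 0 passed and the median was -0.39, with Cd3g at -0.82 (0.159) and Cd8b at 0.62 (0.189). Of 11 smooth muscle genes 0 passed and 10 were higher, with a median of 0.48, Des at 1.34 (0.160) and Myl9 at 0.41 (0.273). Among 8 fibroblast genes S100a4 rose by 1.64 (0.0209), 1 of 8 passing, and 4 of 8 were lower. Col1a1, a collagen gene named after its values were seen, gave -0.105 (0.866) on its brightest probe set, while 2 of its other 3 probe sets fell past the threshold, at -1.34 (0.0140) and -1.35 (0.0220), and the third gave -1.49 (0.0614). Among 6 nerve genes Uchl1 rose by 1.80 (0.0140), 1 of 6 passing, and 4 of 6 were lower, with a median of -0.10. Over all 9 probe sets of these nerve genes 3 passed in either direction, with a median of 0.07. The 1 mesothelial gene tested, Krt8, gave 0.25 (0.739). All 23 adipocyte genes were lower and 2 passed, Agt at -2.58 (0.00755) and Slc2a4 at -1.14 (0.0198), or 11 with the block. Of all 3140 genes 0.255% fell past the threshold, and 158 genes did with the block. All 11 brown fat genes were lower and 0 passed, or 5 with the block, with Pdk4 at -2.86 (0.111) and Fabp3 at -2.50 (0.121). The part of these cell types in the members' changes was not tested beyond the fits with the fat and endothelial scores.

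The genes whose pattern was most like each member were found by Pearson correlation over the 16 arrays, which share the ages and the fat score. For Vcam1 M84488_at they were Fn1 (fibronectin, r = 0.973), Gyg1 (glycogenin, 0.972), Spp1 (osteopontin, 0.971), Lxn (latexin, 0.962) and Slit3 (0.962), and with age means removed these were 0.889 to 0.959. For Icam1 D00913_g_at they were Add1 (0.947), C1r (0.929), Vcam1 (0.908), Ibsp (0.904) and Tpm3 (0.904). Vcam1 and Icam1 with age means removed correlated at r = 0.654 (rho = 0.574; permutation p = 0.0344 and 0.0662, adjusted 0.174 and 0.265), with 0.459 lacking the 2 farthest arrays and 0.559 and 0.487 within the days. The closest genes to Cx3cl1 AF030358_at were less alike, led by Slc10a2 (0.798) and Acvr2b (0.749), then Mep1a (0.718), Ctbp1 (0.714) and Pkia (0.682). For Ccl2 X17053mRNA_s_at they were RT1-Ba, a class II histocompatibility gene (0.738), Anxa3 (0.729), Casp1, which activates interleukin-1 beta (0.697), Cdk5rap3 (0.664) and Psmb8, an immunoproteasome subunit (0.660).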

How the data were processed

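Per the submitters' processing notes the authors made the values with MAS5, and the deposited table holds a MAS5 signal, a background-corrected intensity, for each probe set. Array records deposited with each sample gave hybridisation day, fluidics station, chip lot and control ratios. Records of replicates 2 and 4 at 15 months and replicates 3 and 4 at 28 months also held a note on 10 ug of cRNA. Its meaning is not stated. No array of 3 or 6 months had the note, so it cannot be fully told apart from age. Probe sets were named from the platform annotation: 7006 had 1 symbol, 308 several, 1426 none and 59 were controls.

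Signals were taken as log2(signal + 16) without further scaling. Non-control probe sets with a mean signal of at least the 40th percentile (159.81) were kept, which left 5244 probe sets and 3140 genes, a gene being represented by its brightest probe set. Ages were compared in limma 3.58.1 (R 4.3.3) with all 16 arrays in 1 fit and Benjamini-Hochberg adjustment over all tested probe sets, at a threshold of 0.05. Single differences and scores used exact permutation tests, and correlations 100000 permutations within ages (SciPy 1.17.1). The fit was also run on simulated data with independent noise for each probe set and no shared day, lot or fat effect. That run does not test how such effects act on the calls here. The number of arrays limits the precision. Each rat is on 1 array, so p-values of the fit without a block measure the spread between rats together with that between days, stations, chip lots and RNA preparations. Alternatives were the pseudocount, the filter, quantile normalization, leaving out each array, and day, lot, fat, endothelial and block terms.

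Each replicate number marks 1 combination of hybridisation day, fluidics station and chip lot in the array records, with 1 array of each age, so the numbers pair arrays. Replicates 3 and 4 share a chip lot, and the records name no run. Over 24 same-numbered pairs the deviations from age means correlated at a median of 0.166 (-0.314 to 0.623), against -0.030 for other pairs.

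The members, gene lists and scores were chosen with earlier results of these data known. All 9 member probe sets are named. From each other list the genes past the threshold are named, or with none the 2 of smallest p, genes outside this rule are said to be so where they are named, and for likeness the 5 genes of highest correlation.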

Additional observations from a re-analysis of the deposited data

How the results depend on the processing

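Numbers of calls depended strongly on the processing, both over all probe sets and for the members. Between 3 and 28 months 69 probe sets passed, and the count was 645 with the replicate block, 476 with day, 329 with chip lot, 760 with array weights, 544 on the arrays of these 2 ages alone, 39 with the fat score, 5 with the fat score and block, 22 with the cRNA note, 44 without the high beta-actin arrays, 691 on day 1, 0 on day 2, and 10 to 156 when each array was left out in turn. The members' count of 5 became 3 with the fat score or the cRNA note, 0 with the fat score and block and 0 on day 2, with 2 to 5 under leave-one-out, and it stayed 5 in the other fits listed. The fit of fat score with block and that with the cRNA note were chosen after seeing the data.

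Calls lost from 3 to 28 months, with the log2 changes then found, were X63722cds_s_at of Vcam1 (1.31) and D00913_g_at of Icam1 (0.83) with the fat score, and the same probe sets (2.09 and 1.11) with the cRNA note. On day 2 the changes of M84488_at, X63722cds_s_at, D00913_g_at, AF030358_g_at and rc_AA800602_s_at were 2.37, 1.61, 0.93, 2.57 and 1.77, and with the fat score and block 1.81, 1.36, 0.90, 2.24 and 1.26. Leaving out each array gave X63722cds_s_at 1.87 to 2.30 (6 of 16 times not past), D00913_g_at 0.96 to 1.19 (5 of 16), rc_AA800602_s_at 1.48 to 1.88 (2 of 16) and AF030358_at -0.00083 to 0.30. AF030358_at of Cx3cl1 also turned sign on day 1 (-0.12) and with the cRNA note (-0.061).

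From 6 to 28 months 42 probe sets passed, and 925 with the replicate block, 102 with the filter at the 60th percentile, 610 on these 2 ages alone, 7 with the endothelial score, 4 with the fat score and block, 0 with the fat score, 0 without the high beta-actin arrays and 0 to 734 under leave-one-out. The members' count of 4 was 2 with the endothelial score, 0 with the fat score, 0 with the fat score and block, 0 without the high beta-actin arrays and 0 to 5 under leave-one-out. From 3 to 15 months the count of 5 was 12 with the block (members 1 instead of 0), 17 with the fat score, 3 with the endothelial score, 0 without the high beta-actin arrays, 0 on these 2 ages alone and 0 to 7 under leave-one-out. The other counts moved between 0 and 1, except 0 to 4 under leave-one-out from 6 to 15 months: from 3 to 6 months 1 with the fat score, from 15 to 28 months 1 with the fat score or the stricter filter and 0 to 1 under leave-one-out, and from 6 to 15 months 0 without the filter, with quantile normalization, the endothelial score or these 2 ages alone, and 0 without the high beta-actin arrays. The F test over all ages called 37 probe sets, and 341 with the block, 18 without the filter, 9 with the fat score, 20 with the endothelial score and 10 to 91 under leave-one-out. The slope called 709, and 1333, 354, 26, 384 and 171 to 1037 in the same order.

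The changes that turned sign had main values near 0 and passed no test. From 3 to 6 months X63722cds_s_at of Vcam1 gave 0.0024 with a pseudocount of 64, 0.044 with quantile normalization, 0.035 with the fat score and 0.11 with the endothelial score, and Ccl2 gave 0.061 (X17053mRNA_s_at) and 0.0020 (X17053cds_s_at) with quantile normalization. From 3 to 15 months D00913_at of Icam1 gave -0.20 with the fat score, -0.092 with the endothelial score and -0.10 without the high beta-actin arrays, and X17053cds_s_at of Ccl2 gave 0.28 with the fat score and 0.10 without those arrays. From 6 to 15 months D00913_at gave -0.020 with the fat score, and X17053cds_s_at gave 0.36, 0.13 and 0.16 with the fat score, the endothelial score and without those arrays. From 6 to 28 months AF030358_at of Cx3cl1 gave 0.0021 with the endothelial score and 0.25 with the fat score and block. The difference between the Ccl2 probe sets was -0.00042 with a pseudocount of 1.

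Under leave-one-out the ranges that crossed 0 were, from 3 to 6 months, -0.29 to 0.34 (M84488_at), -0.40 to 0.25 (X63722cds_s_at), -0.19 to 0.13 (D00913_g_at), -0.45 to 0.0091 (D00913_at), -0.16 to 0.16 (X17053mRNA_s_at) and -0.31 to 0.11 (X17053cds_s_at). From 3 to 15 months they were -0.15 to 0.14 (D00913_at) and -0.40 to 0.10 (X17053cds_s_at), from 6 to 15 months -0.0052 to 0.46 and -0.26 to 0.16 for the same probe sets, and from 6 to 28 months -0.18 to 0.12 (AF030358_at). The differences of change of the Ccl2 probe sets (-0.13 to 0.23) and of AF030358_at and X17053mRNA_s_at (-0.35 to 0.12), the fat score from 3 to 6 months (-0.17 to 0.41) and the endothelial score from 3 to 28 months (-0.18 to 0.015) crossed 0 as well. The cause of these changes was not tested. Signal over background could not be read from the deposited values.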
